A study of Mus musculus with 4 samples.

Results

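Odorant-binding proteins are small secreted lipocalins, a family whose barrel fold encloses a pocket for lipophilic ligands, and the nasal glands release them into the mucus over the olfactory epithelium. The same mucus holds proteins of the BPI fold family, which bind lipids and act in mucosal defence, and gel-forming mucins. These genes are known for the secretions of mucosa and glands rather than for bone. The 10 genes described here are *Obp1a*, *Gm14743*, *Obp2a*, *Lcn11* and *Mup4* (lipocalins), *Bpifa1* and *Bpifb1* (BPI fold proteins), *Muc5b* (a gel-forming mucin), *Dmbt1* (a scavenger receptor cysteine-rich protein of mucosal secretions) and *Scgb1a1* (the secretoglobin of airway club cells). They were taken by name from the 23946 genes measured, and all 10 were present. The list was chosen from the same FPKM values that are given here, because *Obp1a*, *Gm14743* and *Obp2a* were among the genes that differed most between libraries, so the differences below describe the list and do not test it.

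RNA came from calvarial bone of mice at postnatal day 21 on the C57BL/6J background. According to the paper, the parietal bones held pericranium and dura mater besides the bone plate. The groups were wild-type frontal bone, wild-type parietal bone, *Twist1*+/- frontal bone and *Twist1*+/- parietal bone, where *Twist1*+/- mice carry 1 functional copy of the transcription factor gene *Twist1*. Frontal bone is of neural crest origin, whereas parietal bone arises from mesoderm. The study used 12 mice per strain, but 1 library per group is analysed here and how the RNA of the mice was combined is not given in the sources used here. Each of the 4 groups has 1 value per gene, called a library here, so differences could not be set against replicates and none is tested. The study's methods mention replicates, and whether a value pools several is not given in the sources used here.

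Levels are FPKM, the fragments of a gene scaled to transcript length and to library size. *Twist1* was at 59.0 FPKM for wild-type and 30.4 FPKM for *Twist1*+/- frontal bone, but at 52.5 FPKM for wild-type parietal bone and 50.7 FPKM for the parietal library labelled *Twist1*+/-. The level of the targeted gene therefore does not match that label, and every direction given for that library rests on its label. Each library carried high levels of bone genes. *Bglap*, which encodes osteocalcin, lay between 5220 and 7982 FPKM, *Spp1* (osteopontin) between 4107 and 12239 FPKM and *Sparc* (osteonectin) between 5100 and 9089 FPKM. A listed 0 is not proof of absence, since the bone collagen gene *Col1a1* was at 5595 FPKM for wild-type parietal bone and listed at 0 in the other libraries. In bulk RNA, fewer cells of a type and less RNA per cell cannot be told apart.

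Of the 10 genes, 9 had a value above 0 in every library, and these 9 shared the same low libraries. Each was lowest in wild-type parietal bone and next lowest in wild-type frontal bone. The sum of the 10 genes was 17.3 FPKM for wild-type parietal bone, 332.1 FPKM for wild-type frontal bone, 1808 FPKM for *Twist1*+/- frontal bone and 1985 FPKM for the parietal library labelled *Twist1*+/-. Their share of all FPKM was 0.00247%, 0.0670%, 0.348% and 0.305% in the same order. In the parietal library labelled *Twist1*+/- 5 of the 9 were above *Twist1*+/- frontal bone and 4 were below it, the smallest difference being 1.01-fold (*Gm14743*). *Scgb1a1* was listed at 0 in all 4 libraries. Yet none of the 402 windows of 75 bases in its transcript was found in another annotated coding gene.

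**Figure D1:**
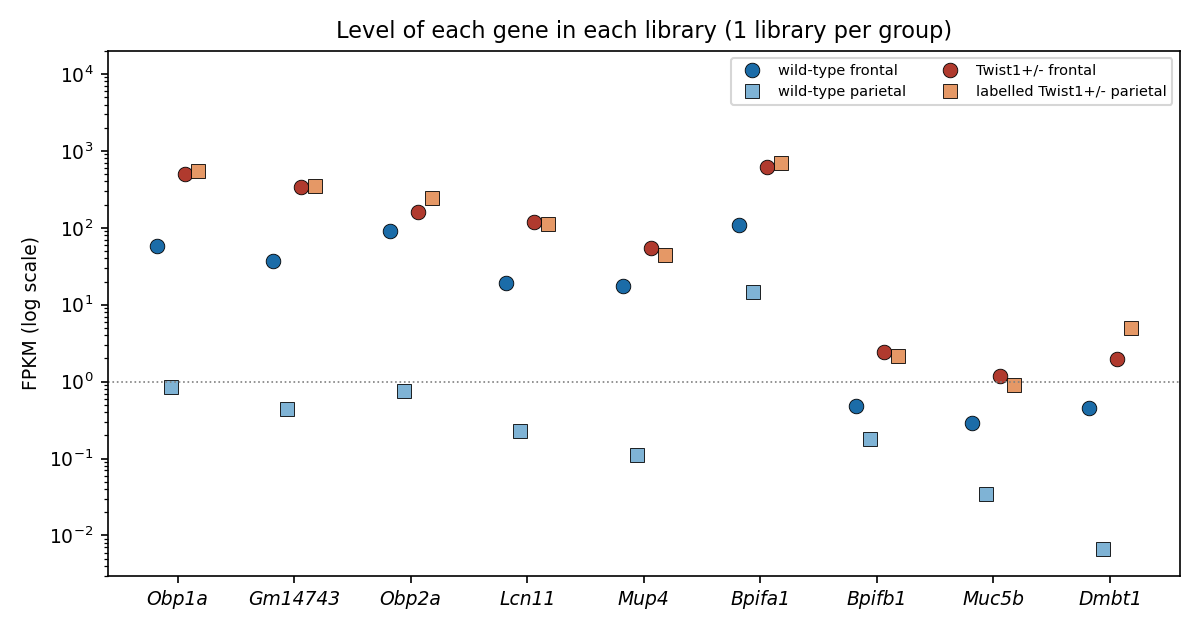
Levels of the 9 genes above 0, in FPKM on a log scale, with 1 point per library and the dotted line at 1 FPKM. Wild-type parietal bone has the lowest point of every gene, *Bpifa1* being its only gene above 1 FPKM (14.7 FPKM), and the *Twist1*+/- points of each gene lie within 2.58-fold of each other.

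*Obp1a* and *Gm14743* are odorant-binding protein genes of the X chromosome. *Obp1a* was at 57.6 FPKM for wild-type frontal bone, 0.852 FPKM for wild-type parietal bone, 505 FPKM for *Twist1*+/- frontal bone and 542 FPKM for the parietal library labelled *Twist1*+/-. By level it ranked 1133 among all genes in wild-type frontal bone, 13388 for wild-type parietal bone, 90 for *Twist1*+/- frontal bone and 125 in the parietal library labelled *Twist1*+/-. The low library thus stood 637-fold below the library with the same bone and the *Twist1*+/- label, and 67.6-fold below wild-type frontal bone. *Gm14743*, known by its predicted gene name, was at 36.8 FPKM for wild-type frontal, 0.437 FPKM for wild-type parietal, 341 FPKM for *Twist1*+/- frontal and 346 FPKM for the parietal library labelled *Twist1*+/-. Its level followed that of *Obp1a* closely, with a ratio of *Obp1a* to *Gm14743* of 1.56, 1.95, 1.48 and 1.57 in these libraries.

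*Obp1a* lies on chromosome X of mm9 from 75330844 to 75336713 and *Gm14743* from 75485801 to 75491260, both on the reverse strand and each with 7 exons. Their coding sequences of 492 and 516 bases were identical at 70.3% of aligned positions. No 75-base window of the *Obp1a* transcript, the length of 1 read, had an exact match in another annotated coding gene. For *Gm14743*, 475 of 685 windows (69.3%) also occurred in *Obp1b*, whose coding sequence is 99.8% identical and which has no row of its own in the files. The value of *Gm14743* may therefore include reads of *Obp1b*. The next lines show a 75-base coding stretch that *Gm14743* and *Obp1b* share (coding bases 68 to 142 of *Gm14743*) and the aligned stretch of *Obp1a* (coding bases 47 to 121), in which capitals mark the 24 bases that differ from *Gm14743*.
*Gm14743*: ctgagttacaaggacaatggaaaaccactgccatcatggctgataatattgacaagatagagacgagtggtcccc
*Obp1a*: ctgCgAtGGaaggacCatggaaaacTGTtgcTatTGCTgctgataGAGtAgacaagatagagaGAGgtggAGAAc

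The lipocalin genes of chromosome 2 had the same low libraries with other proportions. *Obp2a*, an odorant-binding protein gene also known as *Lcn13* (chromosome 2 of mm9 from 25555563 to 25558846, forward strand, 7 exons), was at 91.9 FPKM for wild-type frontal bone, 0.747 FPKM for wild-type parietal bone, 160 FPKM for *Twist1*+/- frontal bone and 244 FPKM for the parietal library labelled *Twist1*+/-. It had the smallest difference of the 9 genes between the frontal bones, 1.74-fold. In wild-type frontal bone *Obp2a* stood above *Obp1a*, with a ratio of *Obp1a* to *Obp2a* of 0.626, whereas the ratio was 3.15 in *Twist1*+/- frontal and 2.23 in the parietal library labelled *Twist1*+/-. *Lcn11*, a lipocalin gene further along the same chromosome (from 25632537 to 25635799, 6 exons), was at 19.2 FPKM for wild-type frontal, 0.231 FPKM for wild-type parietal, 117 FPKM for *Twist1*+/- frontal and 112 FPKM for the parietal library labelled *Twist1*+/-. *Obp2a* shared 56 of 670 windows (8.36%) with *Obp2b* and *Lcn11* shared none.

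*Mup4* encodes a major urinary protein, a pheromone-carrying lipocalin, and lies on chromosome 4 from 59969676 to 59973582 on the reverse strand. It was at 17.7 FPKM for wild-type frontal bone, 0.110 FPKM for wild-type parietal bone, 53.9 FPKM for *Twist1*+/- frontal bone and 44.9 FPKM for the parietal library labelled *Twist1*+/-. Like the other lipocalins it was lowest in wild-type parietal bone, and its difference of 3.05-fold between the frontal bones was the one nearest to the 3-fold limit. Only 3 of 848 windows (0.354%) were shared, all with *Mup5*. Of 19 other major urinary protein genes in the files, 15 were listed at 0 in every library and 1, *Mup5*, reached 1 FPKM, with 15.2 FPKM for wild-type frontal, 0.217 FPKM for wild-type parietal, 219 FPKM for *Twist1*+/- frontal and 185 FPKM for the parietal library labelled *Twist1*+/-.

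*Bpifa1*, whose product is a secreted surfactant and defence protein of the upper airway, was the highest of the 10 genes in every library. It lies on chromosome 2 from 153968616 to 153974955 and was at 107.8 FPKM for wild-type frontal bone, 14.7 FPKM for wild-type parietal bone, 625 FPKM for *Twist1*+/- frontal bone and 688 FPKM for the parietal library labelled *Twist1*+/-. In wild-type parietal bone it was the 1 gene of the 10 above 1 FPKM, and the ratio of *Obp1a* to *Bpifa1* was 0.0579 there against 0.534 in wild-type frontal, 0.809 for *Twist1*+/- frontal and 0.788 in the parietal library labelled *Twist1*+/-. *Bpifb1*, a larger protein of the same family encoded nearby (from 154016554 to 154046105), was at 0.487 FPKM, 0.178 FPKM, 2.43 FPKM and 2.15 FPKM for wild-type frontal, wild-type parietal, *Twist1*+/- frontal bone and the parietal library labelled *Twist1*+/-. These neighbours of 1 family thus differed widely in level within each library, while the order of the wild-type libraries below the *Twist1*+/- libraries was the same for both.

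The large mucosal proteins were near or below 1 FPKM in most libraries. *Muc5b* (chromosome 7 from 149024975 to 149058990, 49 exons) was at 0.288 FPKM for wild-type frontal, 0.0348 FPKM for wild-type parietal, 1.18 FPKM for *Twist1*+/- frontal and 0.892 FPKM for the parietal library labelled *Twist1*+/-. *Dmbt1* (chromosome 7 from 138175590 to 138265140, 48 exons) was at 0.457 FPKM for wild-type frontal, 0.00670 FPKM for wild-type parietal, 1.94 FPKM for *Twist1*+/- frontal and 5.01 FPKM for the parietal library labelled *Twist1*+/-. *Dmbt1* had the widest difference of the 9 genes between the *Twist1*+/- bones, 2.58-fold, and neither gene shared a window with another annotated coding gene.

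The precision of the low values was read from genes with 1 annotated coding transcript, whose FPKM times length gather at whole multiples of what 1 read is worth. At the best of 90 trial values, between 28.3% and 31.9% of the low genes of a library lay within 0.1 of a whole read, against a median of 19.7% to 20.6% over the trial values, so the numbers of reads that follow are approximate. In wild-type parietal bone *Obp1a* rested on about 15 reads, *Obp2a* on about 13, *Muc5b* on about 12, *Gm14743* on about 8, *Bpifb1* on about 7, *Lcn11* on about 4, *Mup4* on about 2 and *Dmbt1* on about 1, while *Bpifa1* had about 387. Counting intervals (binomial, 95%) were computed from these estimated reads, rounded to whole numbers, and not from observed counts. The 749-fold difference of *Dmbt1* between the parietal libraries has an interval from 134-fold to 29629-fold, and that of *Mup4*, 409-fold, one from 136-fold to 4074-fold. For *Obp1a* the interval was 395-fold to 1165-fold. Intervals cover counting error and not the spread between animals. They also leave out the error of the estimated value of 1 read, so they are approximate. In the other libraries each of the 9 genes rested on about 33 reads or more.

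A gene was called different when its FPKM ratio passed 3-fold and its higher value was at least 1 FPKM. In the parietal library labelled *Twist1*+/- against wild-type parietal bone, 8 of the 10 genes were called higher, where 5.25% of all 13914 genes at or above 1 FPKM were. *Muc5b*, with a ratio of 25.6-fold, was below 1 FPKM in both libraries, and *Scgb1a1* has no ratio. Of the 8, 7 reached 1 FPKM only in the labelled *Twist1*+/- library, so they had to differ to be counted. The log2 ratios of the 9 genes ran from 3.59 (*Bpifb1*) to 9.63 (*Gm14743*) with a median of 8.68, against a median of -0.06 over all genes at or above 1 FPKM. The 5 lipocalin genes lay at 8.35 or above, and *Bpifa1* at 5.55.

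In *Twist1*+/- against wild-type frontal bone, 8 of the 10 genes were called higher, where 3.17% of all 14341 genes were. *Obp2a*, at a log2 ratio of 0.80, was not called. Of the 8, *Bpifb1*, *Muc5b* and *Dmbt1* reached 1 FPKM only in the *Twist1*+/- library, so they had to differ to be counted, and with 1 FPKM added before the ratio 4 genes were called. The log2 ratios ran from there to 3.21 (*Gm14743*), with 3.13 for *Obp1a*, 2.61 for *Lcn11* and 2.54 for *Bpifa1* and a median of 2.32 over the 9 genes, against -0.04 over all genes. This comparison contains neither of the parietal libraries, and so not the one whose *Twist1* level goes against its label. The sizes were unequal, since *Obp1a* differed 8.78-fold between the frontal and 637-fold between the parietal libraries. No test of that difference was possible with 1 library per group.

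In wild-type parietal against wild-type frontal bone, 6 of the 10 genes were called lower, where 9.20% of all 14214 genes were. They were *Mup4* (log2 ratio -7.33), *Obp2a* (-6.94), *Gm14743* (-6.40), *Lcn11* (-6.38), *Obp1a* (-6.08) and *Bpifa1* (-2.87). *Dmbt1* (-6.09), *Muc5b* (-3.05) and *Bpifb1* (-1.45) were lower too but below 1 FPKM in both libraries. Both wild-type libraries also stand in the 2 comparisons above, so these ratios are not separate evidence, and 5 of the 6 genes reached 1 FPKM only in frontal bone.

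Between the *Twist1*+/- bones, 0 of the 10 genes were called in either direction, where 4.09% of all 14305 genes were. The ratios ran from -0.41 (*Muc5b*) to 1.37 (*Dmbt1*), with 0.10 for *Obp1a*, 0.02 for *Gm14743*, 0.61 for *Obp2a*, 0.14 for *Bpifa1*, -0.06 for *Lcn11*, -0.17 for *Bpifb1* and -0.26 for *Mup4*. The approximate counting intervals of the fold included equal levels for *Gm14743* (0.981 to 1.049), *Lcn11* (0.899 to 1.020) and *Bpifb1* (0.662 to 1.175), so their direction is not resolved. The parietal library of this pair is the one whose *Twist1* level goes against its label.

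**Figure D2:**
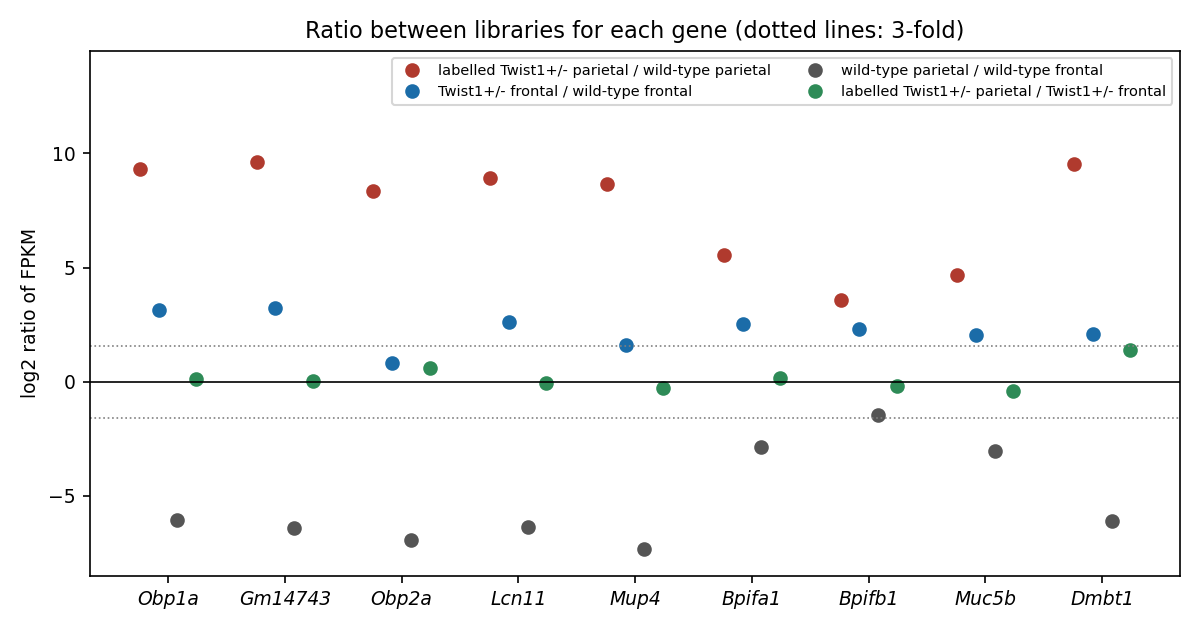
Log2 ratios of FPKM for the 9 genes in the 4 comparisons, with dotted lines at 3-fold. The ratios of labelled *Twist1*+/- to wild-type parietal bone lie at 3.59 and above, those of the frontal bones between 0.80 and 3.21, those of wild-type parietal to frontal bone at -1.45 and below, and those between the *Twist1*+/- bones between -0.41 and 1.37.

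The genes beside the members in the genome were read in order, a step added after the values of some of them had been seen. On chromosome X, 6 protein-coding genes from *Gm14744* to *Gm14743* span 381 kb, and 5 of them have a row in the files. *Gm14744* was at 38.5 FPKM for wild-type frontal, 0.516 FPKM for wild-type parietal, 287 FPKM for *Twist1*+/- frontal and 237 FPKM for the parietal library labelled *Twist1*+/-. The RIKEN gene *5430402E10Rik* beside it was at 20.9, 0.396, 257 and 207 FPKM in the same order, but 45.9% of the windows of *Gm14744* occur in it, so reads could have been split between the pair. *Gm5938*, the gene next to *Obp1a* with 89.2% coding identity to it, was far lower, at 1.28 FPKM for *Twist1*+/- frontal and 1.43 FPKM for the parietal library labelled *Twist1*+/-, and was listed at 0 in both wild-type libraries.

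On chromosome 2, 11 protein-coding genes from *Lcn8* to *Lcn9* span 172 kb. *Obp2b* (29.2, 0.389, 52.8 and 76.6 FPKM for wild-type frontal, wild-type parietal, *Twist1*+/- frontal bone and the parietal library labelled *Twist1*+/-) and *Lcn3* (16.4, 0.251, 29.3 and 88.5 FPKM) lie between *Obp2a* and *Lcn11* and had the same low library. The lipocalin genes *Lcn5*, *Lcn6*, *Lcn10* and *Lcn9* of the same stretch were listed at 0 in all libraries, and *Lcn8* was above 0 only in wild-type parietal bone (0.235 FPKM). *Bmyc*, a gene of another family between *Obp2a* and *Obp2b*, was also lowest in wild-type parietal bone but over a narrower range. It was at 19.4, 17.2, 18.4 and 32.6 FPKM in the order given for *Obp2b*. Around *Bpifa1*, 13 genes of the BPI fold family span 446 kb, of which 9 reached 1 FPKM in at least 1 library and 8 of these were lowest in wild-type parietal bone. The exception, *Bpifb6*, was at 0.395 FPKM for wild-type frontal and 0.419 FPKM for wild-type parietal bone.

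**Figure D3:**
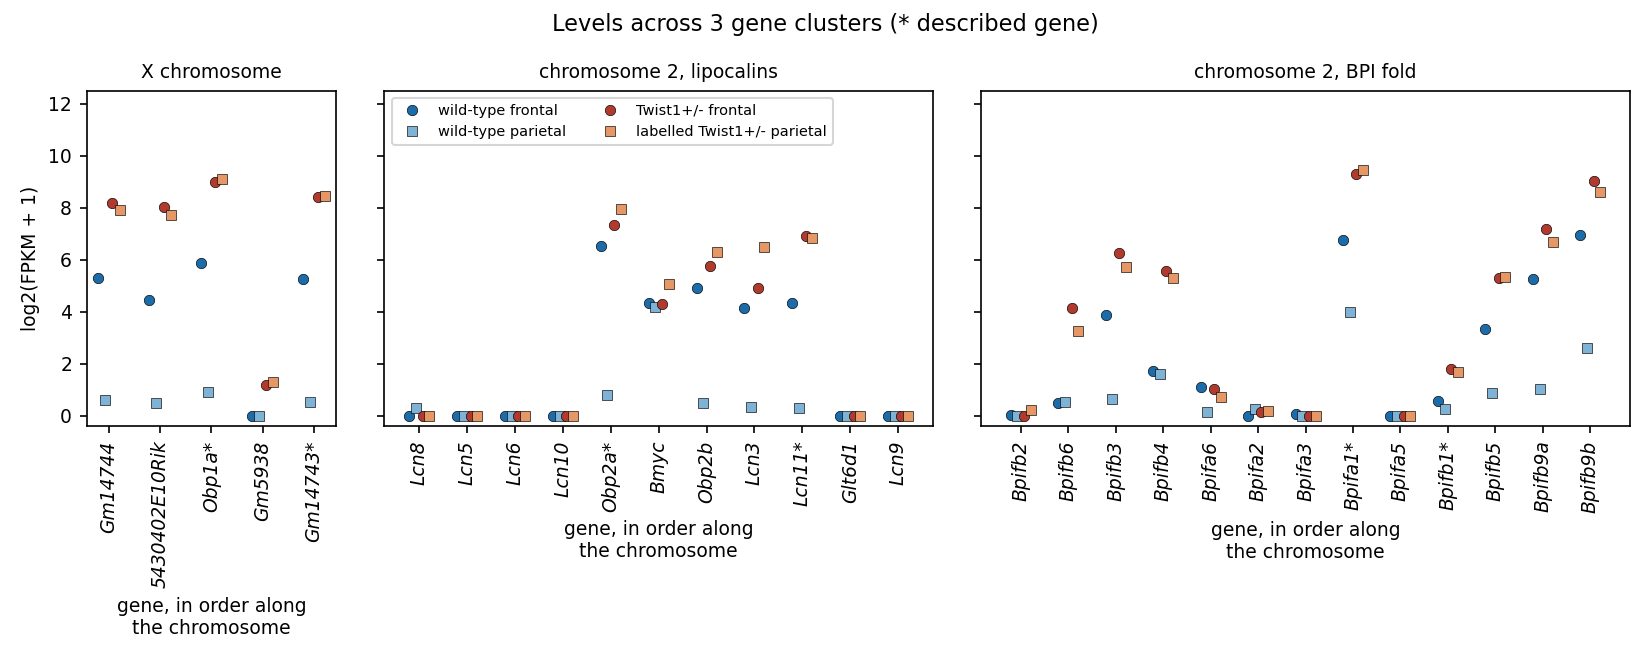
Levels as log2(FPKM + 1) of the genes of 3 clusters, in order along the chromosome, with 1 point per library and the described genes marked by an asterisk. The odorant-binding genes and most BPI fold genes are lowest in wild-type parietal bone. *Bmyc* is lowest there too, at 17.2 FPKM, but its range is narrower, up to 32.6 FPKM in the parietal library labelled *Twist1*+/-.

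The promoters of the 10 genes, *Scgb1a1* included, were read from mm9 as the bases before the annotated start. The motif TATAAA on the forward strand occurred in the window from 250 bases before to 50 after the start in 7 of the 10 genes, against 9.05% of 22370 protein-coding genes. It began at -30 in *Obp1a* and *Obp2a*, -29 in *Bpifa1*, -26 in *Scgb1a1*, -37 in *Dmbt1*, -70 in *Gm14743* and at base 16 after the start in *Mup4*. The forkhead motif TGTTTAC occurred in none and TATTTAC in 2 (*Bpifa1* and *Scgb1a1*), against 3.11% and 2.98% of all promoters on either strand. Of the E-box motifs searched on both strands, CAGCTG occurred in none and CAGATG in *Mup4* alone, against 15.2% and 15.1%. A match describes letters and is not a binding site. The following lines give the 150 bases before the start, 5′ to 3′ on the strand of the gene, of the highest gene and the 3 on which the list was chosen, with TATAAA in capitals. They lie at chrX:75336714-75336863 (reverse strand), chrX:75491261-75491410 (reverse strand), chr2:25555413-25555562 (forward strand) and chr2:153968466-153968615 (forward strand) of mm9.
*Obp1a*: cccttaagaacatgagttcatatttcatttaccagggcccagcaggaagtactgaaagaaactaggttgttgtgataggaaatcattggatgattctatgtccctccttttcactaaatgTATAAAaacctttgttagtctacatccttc
*Gm14743*: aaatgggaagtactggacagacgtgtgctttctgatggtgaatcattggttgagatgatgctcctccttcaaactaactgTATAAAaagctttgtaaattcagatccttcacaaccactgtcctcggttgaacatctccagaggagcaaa
*Obp2a*: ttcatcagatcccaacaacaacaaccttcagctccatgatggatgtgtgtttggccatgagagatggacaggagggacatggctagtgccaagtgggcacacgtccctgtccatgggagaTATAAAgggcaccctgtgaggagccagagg
*Bpifa1*: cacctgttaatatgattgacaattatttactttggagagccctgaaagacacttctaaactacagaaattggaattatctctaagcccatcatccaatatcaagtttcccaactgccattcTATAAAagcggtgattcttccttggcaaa

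Other secreted families of mucosa were followed with lists that leave out the members, and genes were called by the same 3-fold rule. Over all genes, 5.25% were called higher between the parietal libraries and 3.17% between the frontal bones. In wild-type parietal against wild-type frontal bone, 9.20% of all genes were called lower. Of the listed genes called higher between the parietal libraries, those that reached 1 FPKM only in the labelled *Twist1*+/- library had to differ to be counted, and these were 4 of 5 lipocalins, 3 of 6 BPI fold genes and 6 of 7 secretoglobins. Among 18 further lipocalin genes in the files, 9 reached 1 FPKM in either parietal library and 5 of them were called higher in the parietal library labelled *Twist1*+/-. *Ptgds*, the prostaglandin D synthase of meninges and brain, went another way between the frontal bones, with 1975 FPKM for wild-type and 327 FPKM for *Twist1*+/- frontal bone, and was at 52.8 FPKM for wild-type parietal and 428 FPKM for the parietal library labelled *Twist1*+/-. *Lcn2*, a lipocalin of neutrophil granules and epithelia, was at 481, 213, 536 and 246 FPKM for wild-type frontal, wild-type parietal, *Twist1*+/- frontal bone and the parietal library labelled *Twist1*+/-. Among 14 further genes of the BPI fold family, 7 reached 1 FPKM in either parietal library and 6 of them were called higher in the labelled *Twist1*+/- library. *Bpifb9b*, the highest of them by level, was at 122 FPKM for wild-type frontal, 4.99 FPKM for wild-type parietal, 524 FPKM for *Twist1*+/- frontal and 385 FPKM for the parietal library labelled *Twist1*+/-.

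Among 15 further secretoglobin genes, 7 reached 1 FPKM in either parietal library and all 7 were called higher in the labelled *Twist1*+/- library. *Scgb1c1*, a secretoglobin of the nasal glands, was at 44.5 FPKM for wild-type frontal, 6.35 FPKM for wild-type parietal, 210 FPKM for *Twist1*+/- frontal and 727 FPKM for the parietal library labelled *Twist1*+/-. Of 9 further mucin genes 3 reached 1 FPKM in either parietal library, of which *Muc6* and *Muc2* were called higher and *Muc1* was not called. *Muc6* was at 1.41 FPKM for wild-type and 4.82 FPKM for the parietal library labelled *Twist1*+/-. The median difference in log2(FPKM + 1) between the parietal libraries was 2.996 for lipocalins, 4.48 for the BPI fold family, 1.495 for secretoglobins and 0.96 for mucins, against -0.05 over all genes at or above 1 FPKM.

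Many markers of other cells moved with the members, but not all, and their part in the result was not tested. Of 20 genes of the olfactory epithelium, 16 of the 19 at or above 1 FPKM were called higher in labelled *Twist1*+/- than in wild-type parietal bone, 15 of 20 were called higher in *Twist1*+/- than in wild-type frontal bone, and 15 of 18 were called lower in wild-type parietal than in wild-type frontal bone. Their summed level was 270 FPKM for wild-type frontal, 53.5 FPKM for wild-type parietal, 982 FPKM for *Twist1*+/- frontal and 501 FPKM for the parietal library labelled *Twist1*+/-, and none was at 0 in every library. The wild-type parietal sum rests largely on *Adcy3*, at 28.4 FPKM there and 21.8 FPKM for wild-type frontal bone. *Gng8* was also higher in wild-type parietal (6.47 FPKM) than in wild-type frontal bone (4.51 FPKM), against the direction of the members. Of the genes called higher between the parietal libraries, 9 of 16 olfactory genes reached 1 FPKM only in the labelled *Twist1*+/- library, as did 11 of 13 genes of the epithelium list described next, 6 of 10 airway secretory genes, 4 of 4 motile cilia genes and 2 of 2 gland genes. Between the frontal bones this held for 2 of 15 olfactory, 4 of 10 epithelium and 3 of 9 airway secretory genes called higher. All of these had to differ to be counted. *Cyp2g1*, a cytochrome P450 of olfactory mucosa, was at 21.2 FPKM for wild-type frontal, 1.74 FPKM for wild-type parietal, 133 FPKM for *Twist1*+/- frontal and 34.2 FPKM for the parietal library labelled *Twist1*+/-. *S100a5*, a calcium-binding protein of olfactory neurons, was at 57.6, 2.59, 152 and 69.0 FPKM in the same order, and *Cyp2a5* at 23.9, 3.18, 151 and 102 FPKM.

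In the parietal library labelled *Twist1*+/- 8 of 20 olfactory genes were called lower than in *Twist1*+/- frontal bone, where 3.24% of all genes were, and 12 were not called. Of the 10 members 0 were called lower, a count close to that share, and the lists were not tested against each other. The median difference in log2(FPKM + 1) was -1.18 for the olfactory genes and 0.02 for the members. The ratio of *Obp1a* to *Cyp2g1* was 2.72 in wild-type frontal, 0.490 for wild-type parietal, 3.79 for *Twist1*+/- frontal and 15.8 in the parietal library labelled *Twist1*+/-. The 2 secretoglobins called higher in that comparison, against 5 not called, included *Scgb1c1*, at a log2 ratio of 1.79. Over all genes 4.09% were called there in either direction. Of the 2 secretoglobins, 1 reached 1 FPKM only in the parietal library labelled *Twist1*+/-, so it had to differ to be counted.

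Of 18 genes of epithelium in general, 13 of the 14 at or above 1 FPKM were called higher in labelled *Twist1*+/- than in wild-type parietal bone, and 10 of 13 were called higher in *Twist1*+/- than in wild-type frontal bone. Their summed level ran from 9.42 FPKM for wild-type parietal to 80.1 FPKM for *Twist1*+/- frontal bone. In wild-type parietal against wild-type frontal bone 3 of 7 were called lower and 4 were not called, where 9.20% of all genes were called lower. *Epcam*, at 3.86 FPKM for wild-type frontal and 3.46 FPKM for wild-type parietal bone, was among those not called. The keratin gene *Krt18* was at 3.91, 1.48, 18.1 and 13.4 FPKM for wild-type frontal, wild-type parietal, *Twist1*+/- frontal bone and the parietal library labelled *Twist1*+/-. Of 20 markers of secretory cells of airway and nasal mucosa, 10 of the 12 at or above 1 FPKM were called higher in labelled *Twist1*+/- than in wild-type parietal bone and 9 of 11 were called higher in *Twist1*+/- than in wild-type frontal bone. Their sum ran from 67.1 FPKM for wild-type parietal to 547 FPKM for *Twist1*+/- frontal bone, with 1 listed at 0 in every library. *Cyp2f2*, an enzyme of club and nasal gland cells, was at 12.8, 1.66, 56.2 and 43.1 FPKM in the same order. *Ltf*, which encodes lactoferrin and is also made by neutrophils, was not called, with 50.4 FPKM for wild-type and 140 FPKM for the parietal library labelled *Twist1*+/-. The sum of the list rests largely on *Ltf*, which was at 250 FPKM for wild-type frontal and 269 FPKM for *Twist1*+/- frontal bone.

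Of 17 genes of motile cilia, 4 of the 6 at or above 1 FPKM were called higher in labelled *Twist1*+/- than in wild-type parietal bone. Between the frontal bones 0 of 7 were called, where 3.17% of all genes were called higher, so the count is close to that share. Their sum ran from 21.8 FPKM for wild-type frontal to 52.9 FPKM for the parietal library labelled *Twist1*+/-. It rests largely on *Tppp3*, the highest of them in each library. *Tppp3* was at 22.4 FPKM for wild-type parietal bone and 35.7 FPKM for the parietal library labelled *Twist1*+/-. It was higher in wild-type parietal than in wild-type frontal bone, at a log2 ratio of 0.84. The other cilia genes at or above 1 FPKM in either wild-type library were lower in wild-type parietal bone, with log2 ratios from -1.77 to -0.20. The order of the wild-type sums is therefore that of *Tppp3* and not of these other genes. Products of salivary and lacrimal glands had sums of 8.23 FPKM for wild-type frontal, 4.04 FPKM for wild-type parietal, 15.4 FPKM for *Twist1*+/- frontal and 14.4 FPKM for the parietal library labelled *Twist1*+/-, and 4 of the 12 were listed at 0 in every library. Of the 3 at or above 1 FPKM, 2 were called higher between the parietal libraries, *Dcpp3* (0.106 FPKM for wild-type and 6.07 FPKM for the labelled *Twist1*+/- library) and *Pip* (0.247 and 2.90 FPKM). The other, *Amy1*, was not called, with 3.47 FPKM for wild-type and 3.30 FPKM for the labelled *Twist1*+/- library. *Amy1* thus made up most of the wild-type parietal sum. Between the frontal bones 1 of 3 was called higher, and 2 of 3 were called lower in wild-type parietal than in wild-type frontal bone. Of the 14 bone markers, 1 was called higher between the parietal libraries, where 5.25% of all genes were. The 2 called lower there were the collagen genes *Col1a1* and *Col1a2* that are listed at 0. Between the frontal libraries none of the 12 at or above 1 FPKM was called, where 3.17% of all genes were called higher. These counts are close to the shares and do not set the bone markers apart from other genes.

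**Figure D4:**
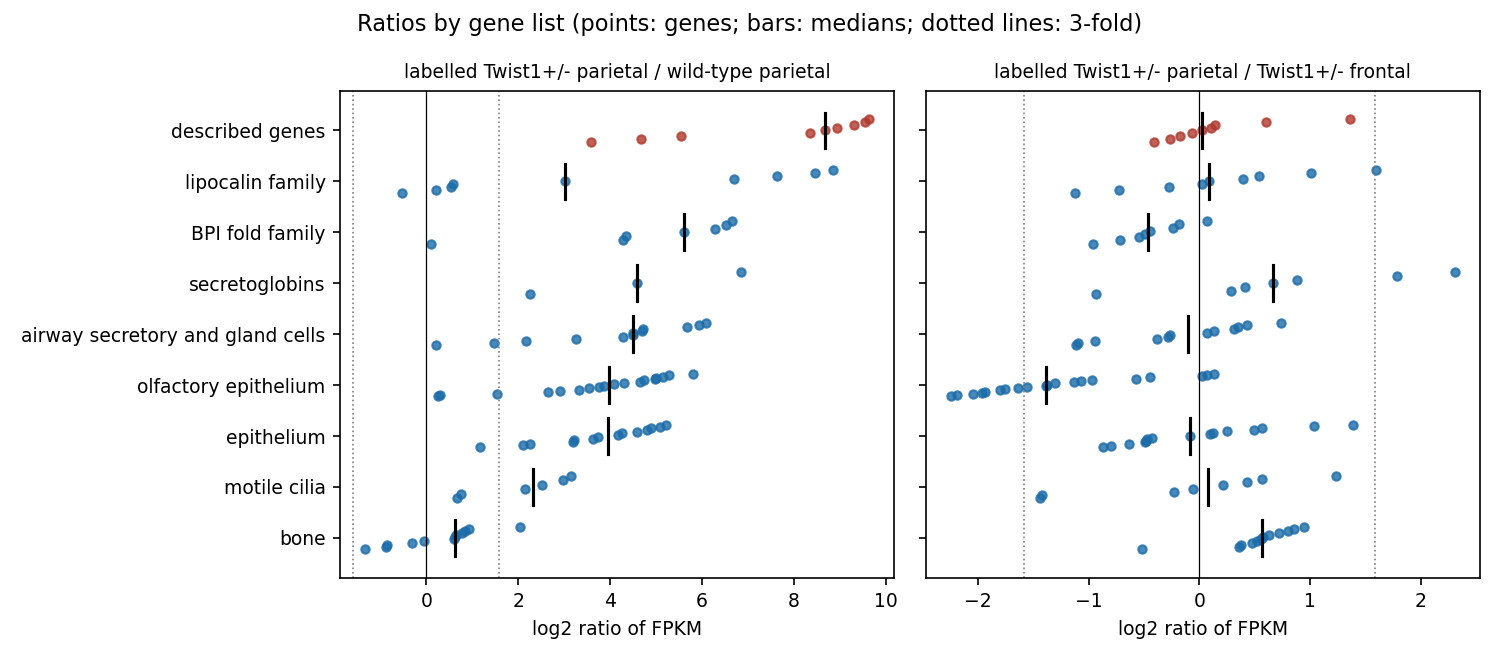
Log2 ratios of FPKM for the described genes and 8 gene lists, in labelled *Twist1*+/- against wild-type parietal bone (left) and labelled *Twist1*+/- parietal against *Twist1*+/- frontal bone (right), with 1 point per gene above 0 in both libraries and bars at medians. Genes of the lists are at or above 1 FPKM in either library. The described genes are drawn without that floor, so *Muc5b*, below 1 FPKM in both parietal libraries, is included on the left. On the left the described genes lie at 3.59 and above and the bone genes between -1.32 and 2.04, and on the right the median of the olfactory genes lies to the left of that of the described genes.

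Other genes were ranked by their distance to the median pattern of the 9 members. The distance was Euclidean over the 4 libraries between profiles of log2(FPKM + 1), each with its mean taken off. The 7867 genes compared were above 0 in all libraries and at or above 10 FPKM in at least 1. Members themselves lay at 0.46 (*Bpifa1*), 0.71 (*Lcn11*), 0.79 (*Mup4*), 1.65 (*Obp2a*), 1.79 (*Gm14743*), 1.98 (*Obp1a*), 3.08 (*Dmbt1*), 3.49 (*Bpifb1*) and 3.89 (*Muc5b*). A gene near the median is therefore not near every member. Nearest to the median of the members were *Wfdc18*, a secreted WAP domain protein gene (distance 0.54), *Bpifb3* (0.62), *Bpifb9a* (0.79), *Bpifb9b* (0.81), *Amelx* (0.82), *Cyp2a5* (0.91), *Obp2b* (1.03) and *Bpifb5* (1.06). *Wfdc18* was at 105 FPKM for wild-type frontal, 9.003 FPKM for wild-type parietal, 321 FPKM for *Twist1*+/- frontal and 423 FPKM for the parietal library labelled *Twist1*+/-. *Amelx* encodes the enamel matrix protein amelogenin and was at 10.8, 0.0760, 39.6 and 101 FPKM in the same order. Nearest to *Obp1a* alone, members apart, were *Gm14744* (0.66), *5430402E10Rik* (0.82) and *Mup5* (0.93), followed by *Bpifb9b* (1.71) and *Bpifb9a* (1.97), while *Gm14743* was at 0.22.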

How the data were processed

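The authors captured poly(A) RNA, prepared stranded libraries, aligned single-end 75-base reads to mm9 with STAR 2.4.2a, and deposited FPKM values made with Cuffdiff of Cufflinks 2.2.1 on an iGenomes annotation. The Cuffdiff scaling option is not given in the sources used here. Files were read with pandas 2.3.3 in Python 3.11.15. FPKM ratios were called past 3-fold with at least 1 FPKM in the higher library, and differences in log2(FPKM + 1), which understate the change of low genes, are given for lists. With 1 library per group no test was run. Members and lists were chosen with earlier results of these data known. All 10 members are named, at most the 3 highest genes of each list, and the nearest genes in pattern. Genes of the clusters around members, and *Col1a1* and *Col1a2* beyond the 3 highest bone genes, were named after their values were seen. *Adcy3* and *Gng8* of the olfactory list were named in the same way.

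Positions, transcripts and windows came from GENCODE M1 on mm9, which is not the authors' annotation. It matched 21965 of 23946 symbols (91.7%), 1073 of them through a unique older symbol in RefSeq, *Obp2a* among these. Coding sequences were aligned globally with Biopython 1.88 and identity taken over all columns. Amino acid sequences were not analysed here, so coding sequences took their place. Reads per gene were estimated from FPKM, transcript length and the value of 1 read.

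Alternatives were adding 1 or 0.1 FPKM before the ratio, a floor of 10 FPKM or none, thresholds of 2-fold and 8-fold, genes above 0 in both libraries, scaling to the median ratio or to *Gapdh*, and subtraction of the median log2 ratio in 20 groups by GC content, which left genes without a GC value uncorrected.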

Additional observations from a re-analysis of the deposited data

Results flagged for a closer look

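Parietal bone was below frontal bone in the wild type and above it with the *Twist1*+/- label for 5 of the 9 genes above 0, and this opposite direction, with 1 library per group, was not tested. The *Twist1*+/- log2 ratio less the wild-type log2 ratio was 7.55 for *Obp2a* (0.61 less -6.94), 7.46 for *Dmbt1* (1.37 less -6.09), 6.42 for *Gm14743* (0.02 less -6.40), 6.18 for *Obp1a* (0.10 less -6.08) and 3.01 for *Bpifa1* (0.14 less -2.87). The *Twist1*+/- ratios of *Obp1a*, *Gm14743* and *Bpifa1* were small, at 0.14 or less. For *Gm14743* the approximate counting interval included equal levels (0.981-fold to 1.049-fold), so its opposite direction is not resolved. The wild-type ratio of *Dmbt1* rests on about 1 read in wild-type parietal bone.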

How the results depend on the processing

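No paired analysis was possible because each group has 1 library, and no replicate could be left out. Of 40 counts of called members under alternatives, 36 stayed within 1.5 times the first count. Between the frontal bones the 8 genes became 4 with 1 FPKM added, 5 with a floor of 10 FPKM and 2 with an 8-fold threshold, and between the *Twist1*+/- bones 1 gene, *Dmbt1*, passed a 2-fold threshold. Of 180 log2 ratios recomputed for the 9 genes, 174 left the call as it was and 6 lost it, 5 of them with 1 FPKM added. The other was *Mup4* between the frontal bones, at 1.505 after scaling to *Gapdh*. Ratios that the 1 FPKM floor had kept from a call crossed 3-fold too. With 1 FPKM added, *Muc5b* between the parietal libraries went from 4.68 to 0.87, and between the wild-type bones *Dmbt1* went from -6.09 to -0.53 and *Muc5b* from -3.05 to -0.32 (-1.53 with 0.1 FPKM added), while *Bpifb1* there went from -1.45 to -1.89 after scaling to *Gapdh*. With genes divided into 20 groups by GC content, the median log2 ratio between the parietal libraries was -0.61 where GC was lowest and 0.70 where it was highest, and subtracting it moved the 9 genes by between 0.61 upward and 0.26 downward. Correction for GC content turned the ratio of *Mup4* between the *Twist1*+/- bones, which was not called, from -0.26 to 0.17. Low values in wild-type parietal bone, of about 1 to 15 estimated reads for 8 of the 9 genes, give the ratios against it wide and approximate counting intervals.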
